A study of Mus musculus with 15 samples.

Results

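Granins and prohormone processing enzymes were followed in RNA from the ileum (the end of the small intestine) of adult mice. The 10 genes were taken by name from the 37620 Ensembl gene identifiers of the count tables. They were 5 granins (Chga, Chgb, Scg2, Scg3, Vgf), the convertases Pcsk1 and Pcsk2, their partner proteins Scg5 and Pcsk1n, and the carboxypeptidase Cpe. All 10 were found, and all 10 passed the filter on low counts in every comparison. The animals labelled mutant carried loxP sites in both copies of Rfx6 and a tamoxifen-inducible Cre recombinase driven by the Villin promoter (Rfx6f/f; Vilin-CreERT2), which is active in the intestinal epithelium and not in the muscle, nerves or connective tissue also present in ileum. Rfx6 is a transcription factor gene of enteroendocrine cells, the hormone-producing cells of the gut. Controls were Rfx6f/f or Rfx6f/+ without the recombinase. The protocol describes tamoxifen (10 mg by gavage over a course of 5 days) for the adult mice in general, and does not say whether controls had it. The age, sex and strain of the animals are not given. Ileum was taken 8 days after tamoxifen (3 control libraries, all Rfx6f/f, and 4 mutant) or 3 months after it (4 control libraries, 2 of each genotype, and 4 mutant). Since each time point is its own cohort and its own table, time and cohort cannot be told apart.

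Enteroendocrine cells and neurons store peptides in dense-core secretory granules. Granins are acidic proteins that aggregate in the forming granule and help to build and sort its content, and chromogranins are used as general markers of endocrine cells. Convertases cut prohormones after pairs of basic residues, and carboxypeptidase E then trims the basic residues left at the new end. Secretogranin V (Scg5, also 7B2) helps PC2 to mature, and proSAAS (Pcsk1n) inhibits PC1/3. In the gut, PC1/3 releases GLP-1 from proglucagon. The same genes are active in the neurons of the gut wall.

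The 8-day libraries held 30.5 to 54.5 and the 3-month libraries 26.1 to 36.3, in units of 1000000 counts. Levels are counts per 1000000 (CPM) of the TMM-scaled library total, with SD over libraries. No 2 libraries of a group agreed within sampling noise (chi-square per degree of freedom of 11.3 or more in all 21 pairs), and each was counted as 1 replicate. The labels do not state that each library is a different animal, and p-values measure the spread between these libraries. Rfx6 itself was not lower in the mutant-labelled libraries. It stood at 50, 50 and 84 counts in controls and at 80, 105, 63 and 44 counts in mutant-labelled libraries at 8 days. At 3 months it stood at 51, 52, 38 and 43 counts in controls and at 106, 72, 89 and 65 counts in mutant-labelled libraries (log2 fold change 0.72, SE 0.17, edgeR adjusted p 0.0347). With Rfx6f/f controls only, the adjusted p was 0.239, and leaving out any 1 of the 4 controls or replicate 1 or 3 of the mutant group gave adjusted p values between 0.0562 and 0.0972. Counts over a whole gene do not separate reads of a deleted exon from the rest, so the label of these libraries was not checked by Rfx6. Mutant here means the label throughout.

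Short sequences around the RefSeq starts of these genes are shown so that genes with different changes can be compared. The cyclic AMP response element (CRE, TGACGTCA) binds CREB and its relatives and is a textbook feature of granin promoters. RefSeq start sites on GRCm38.p6 gave a window of the 250 bases before the start for 8 of the 10 genes, and Vgf and Cpe were not matched. In GENCODE M21 on the same assembly, exons of the gene itself cover part of 4 windows: all 250 bases in Chgb, the 94 nearest the start in Scg2, 31 in Pcsk1 and 30 in Scg5. The windows of Chga, Scg3, Pcsk2 and Pcsk1n hold no such exon base. The whole CRE was found in the windows of Chgb, Scg2 and Pcsk1 (3 of 8), against 1.55% of 32851 windows of all genes. The core TGACG, searched on both strands and also contained in every whole CRE, was found in 7 of 8 windows, against 17.8% of all windows. The following 30-base stretches are printed 5′ to 3′ with the element in capitals.
Chga, chr12:102554886-102554915, + strand: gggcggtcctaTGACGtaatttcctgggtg
Chgb, chr2:132781559-132781588, + strand: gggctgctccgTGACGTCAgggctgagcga
Scg2, chr1:79440076-79440105, - strand: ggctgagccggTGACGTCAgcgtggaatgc
Scg3, chr9:75684068-75684097, - strand: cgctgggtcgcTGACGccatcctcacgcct
Pcsk1, chr13:75089768-75089797, + strand: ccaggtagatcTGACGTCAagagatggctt
Pcsk2, chr2:143546085-143546114, - strand, opposite to the gene: gccagcccgggTGACGcgcgcccgccagcg
Scg5, chr2:113829248-113829277, - strand: aaggaggtaaaTGACGttcataggggtcga

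The element lay between 72 and 65 bases before the start in Chgb, between 68 and 61 in Scg2 and between 78 and 71 in Pcsk1. The elements of Chgb and Scg2 thus lie in sequence that GENCODE annotates as exon, and that of Pcsk1 lies before the first annotated exon. The core of Chga lay between 44 and 40 bases before its start. The X-box is the element read by RFX factors. Only 1 spelling of each of its 2 arms was searched, and other spellings were not. GTTGCC was found only in the window of Pcsk1n (10.4% of all windows) and GGTAAC in none of the 8 (6.06% of all windows). The E-box CAGCTG, a type bound by basic helix-loop-helix factors of endocrine cells, was found in Chga and Pcsk2 (13% of all windows). The window of Chga, chr12:102554691-102554940 on the + strand, is given whole because it holds 2 E-boxes and the CRE core, all in capitals.
Chga window: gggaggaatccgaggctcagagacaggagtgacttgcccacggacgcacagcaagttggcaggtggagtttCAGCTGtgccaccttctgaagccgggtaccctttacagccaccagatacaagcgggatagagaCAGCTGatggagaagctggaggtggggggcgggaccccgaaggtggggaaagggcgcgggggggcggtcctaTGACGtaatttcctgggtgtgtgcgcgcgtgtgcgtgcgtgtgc
These matches describe letters in a window and are not evidence of binding.

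Levels differed by about 2 orders of magnitude between the genes when CPM was divided by exon length (CPM per kb). In the 3-month controls Chgb was highest at 24.9 ± 5.18 CPM per kb (SD, n = 4), followed by Cpe at 18.0 ± 2.07, Chga at 11.5 ± 1.41 and Scg2 at 8.54 ± 0.289. Pcsk1 (4.69 ± 0.536) and Scg5 (3.99 ± 0.844) came next, and their ranges over the libraries overlapped. Scg3 (1.24 ± 0.0587), Pcsk1n (0.826 ± 0.193), Pcsk2 (0.428 ± 0.0595) and Vgf (0.281 ± 0.0614) were lowest, and each of the other neighbours in this order was separated in all libraries. PC1/3 mRNA thus stood above PC2 mRNA per exon length. The ratio of Pcsk1 to Pcsk2 counts, not divided by exon length (5604 and 7910 bases), had a geometric mean of 7.73 in the 3-month controls. It was 4.31 in the 8-day controls. In the 3-month mutant-labelled libraries the order at the top was Chgb (85.2 ± 11.3 CPM per kb), Chga (34.4 ± 2.0) and Cpe (18.0 ± 4.06), with no overlap between neighbours, so Chga stood above Cpe. Below them, Scg2 overlapped with Pcsk1, Pcsk1 with Scg5 and Scg3 with Pcsk1n.

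The 8-day controls had nearly the same order. Chgb (17.6 ± 2.30 CPM per kb, SD, n = 3) overlapped with Cpe (17.4 ± 2.97), and Chga (11.8 ± 2.40) overlapped with Scg2 (8.14 ± 1.53). Scg5 was lower in this cohort, at 1.29 ± 0.364 CPM per kb, and its range overlapped with those of Scg3 (1.45 ± 0.295) and Pcsk1n (0.904 ± 0.197). Pcsk2 (0.518 ± 0.0140) and Vgf (0.192 ± 0.0477) were again the lowest. In the 8-day mutant-labelled libraries Chgb (22.8 ± 4.69) was separated from Cpe (15.4 ± 2.98) in all libraries. The range of Chga (14.7 ± 3.01) overlapped with those of both. Levels of the cohorts were scaled separately and were not tested against each other.

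At 3 months the chromogranins A and B were the only 2 of the 10 genes called higher or lower in the mutant-labelled libraries, at an adjusted p under 0.05. Both rose about 3-fold. Across all genes tested, 9.28% were called, and 4.96% were called higher. The median log2 fold change of the 10 genes was 0.15, and that of all 17085 genes tested was 0.01. Chromogranin A (Chga, ENSMUSG00000021194) is the precursor of pancreastatin and other peptides. It stood at 32.3, 26.9, 31.3 and 36.4 CPM in the controls and at 93.8, 90.9, 103.0 and 92.0 CPM in the mutant-labelled libraries. Every library labelled mutant was above every control by a wide margin. The log2 fold change was 1.58 (SE 0.09, 95% interval 1.37 to 1.79, edgeR quasi-likelihood adjusted p 8.8e-05), from 31.8 ± 3.90 to 94.9 ± 5.52 CPM (SD, n = 4 each). Chromogranin B (Chgb, ENSMUSG00000027350), a second major granin of endocrine granules, stood at 64.4, 58.4, 60.5 and 89.1 CPM in the controls. In the mutant-labelled libraries it stood at 246.5, 198.6, 269.4 and 219.0 CPM. Again no library of either group came near the other group, although control replicate 4 lay above the other 3 controls. The log2 fold change was 1.78 (SE 0.15, 95% interval 1.44 to 2.12, edgeR quasi-likelihood adjusted p 0.000798), from 68.1 ± 14.2 to 233.4 ± 31.0 CPM (SD, n = 4 each). In this whole tissue, more cells with a transcript and more transcript per cell cannot be told apart.

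**Figure D1:**
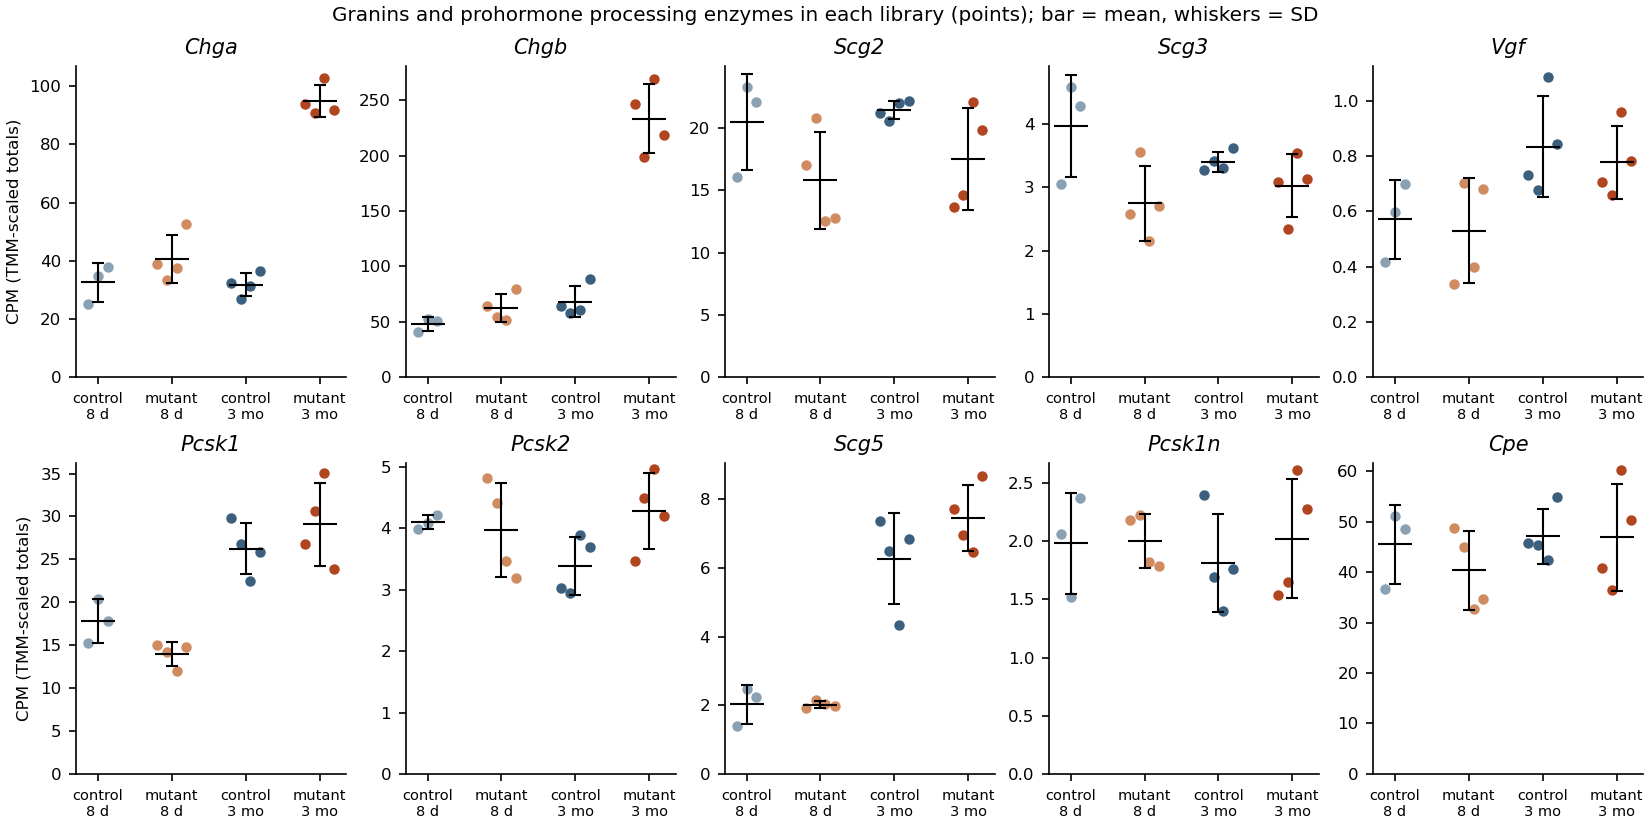
CPM on the vertical axes (linear, from 0, a scale of its own in each panel) for the 10 genes in control and mutant-labelled libraries at 8 days and 3 months; points are libraries, bars are means and whiskers SD (n = 3 for the 8-day controls and 4 for the other groups). The 3-month mutant-labelled libraries sit far above all others for Chga (90.9 to 103.0 CPM) and Chgb (198.6 to 269.4 CPM), while the groups overlap at 3 months for the other 8 genes.

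The other 3 granins were not called at 3 months, and their means lay on the lower side. Secretogranin II (Scg2), the precursor of secretoneurin, stood at 21.2, 20.6, 22.0 and 22.1 CPM in the controls and at 13.6, 14.6, 22.0 and 19.9 CPM in the mutant-labelled libraries. The controls were tight, and the mutant-labelled libraries were spread from well below them to their level. The log2 fold change was -0.29 (95% interval -0.63 to 0.04, edgeR adjusted p 0.224), so a rise like that of Chga or Chgb lay outside its interval. Secretogranin III (Scg3), which binds chromogranin A and carries it to the granule membrane, stood at 3.27, 3.41, 3.30 and 3.63 CPM in the controls. In the mutant-labelled libraries it stood at 3.08, 2.34, 3.54 and 3.13 CPM, with a log2 fold change of -0.17 (95% interval -0.49 to 0.16, edgeR adjusted p 0.467). Vgf, a neuronal and endocrine granin, was the least abundant gene of the 10, with 20 to 36 counts in any 3-month library. Its interval was the widest among the granins (-0.58 to 0.40 around a log2 fold change of -0.09, edgeR adjusted p 0.814).

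Neither of the convertases was called at 3 months. Pcsk1, which encodes PC1/3, stood at 29.8, 26.8, 22.5 and 25.9 CPM in the controls and at 26.8, 30.6, 35.1 and 23.9 CPM in the mutant-labelled libraries. The groups overlapped over most of their range, and the log2 fold change was 0.15 (95% interval -0.14 to 0.44, edgeR adjusted p 0.469). Pcsk2, which encodes PC2, stood at 3.03, 2.95, 3.88 and 3.70 CPM in the controls and at 3.47, 4.49, 4.96 and 4.20 CPM in the mutant-labelled libraries. In 3 of these 4 libraries it was above every control, and its log2 fold change of 0.34 had an interval from -0.01 to 0.69 (edgeR adjusted p 0.177). Pcsk2 shares exon bases with the antisense genes Pcsk2os1 (2 to 12 counts a library) and Pcsk2os2 (0 to 2 counts), and the authors' strand setting is not given in the sources used here.

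The partner proteins and the carboxypeptidase were not called either. Scg5 stood at 7.38, 6.48, 4.35 and 6.83 CPM in the 3-month controls and at 7.71, 6.96, 6.45 and 8.69 CPM in the mutant-labelled libraries (log2 fold change 0.25, 95% interval -0.14 to 0.64, edgeR adjusted p 0.363). Control replicate 3 was the lowest of these 8 libraries. Pcsk1n ranged from 1.40 to 2.40 CPM in controls and from 1.54 to 2.61 CPM in mutant-labelled libraries (log2 fold change 0.16, 95% interval -0.36 to 0.68, edgeR adjusted p 0.678). Cpe, which acts on nearly every prohormone after the convertases, stood at 45.7, 45.4, 42.3 and 54.8 CPM in the controls and at 40.8, 36.4, 60.2 and 50.3 CPM in the mutant-labelled libraries. Its means were 47.1 ± 5.4 and 46.9 ± 10.6 CPM (SD, n = 4 each), and the 95% interval of its log2 fold change ran from -0.35 to 0.34 (edgeR adjusted p 0.990). Of the 3 genes whose windows hold the whole CRE, Chgb was called and Scg2 and Pcsk1 were not. In the plot of each gene's change, the 3-month intervals of these 8 genes all include 0.

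**Figure D2:**
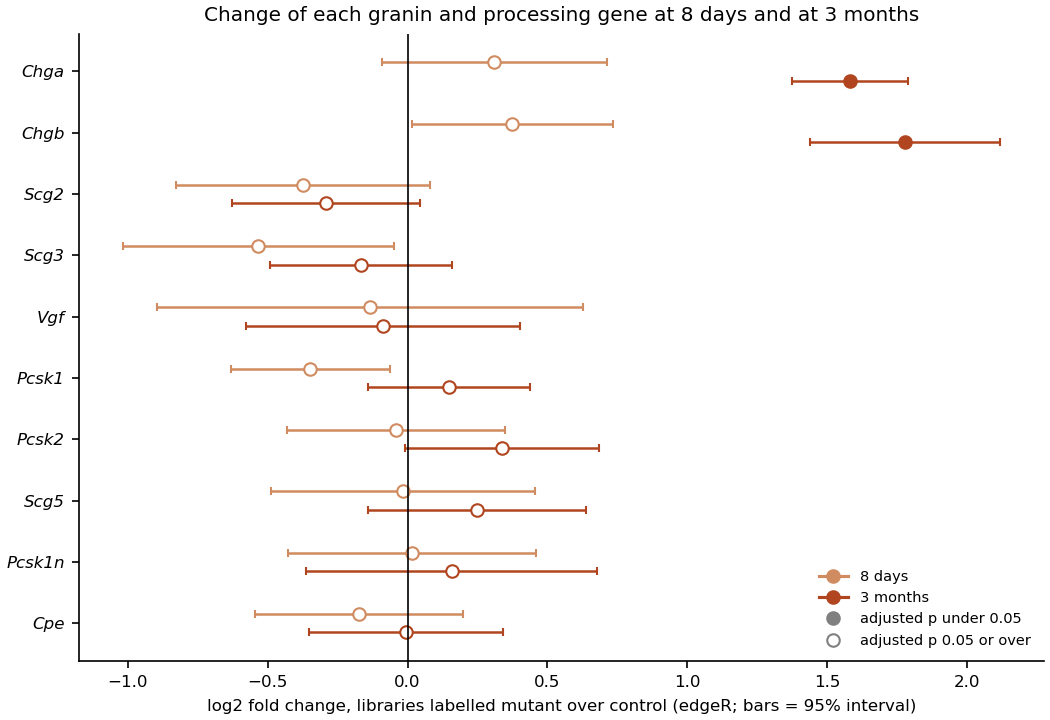
Log2 fold change of mutant-labelled libraries over control (horizontal axis) for the 10 genes at 8 days and at 3 months, with 95% intervals from the edgeR fit; filled points have an adjusted p under 0.05. Only Chga (1.58) and Chgb (1.78) at 3 months are filled, and the 3-month intervals of the other 8 genes include 0.

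At 8 days none of the 10 genes passed the test. The edgeR fit called 0 of 10, with 3 at an unadjusted p under 0.05, and DESeq2 and limma-voom also called 0. Over all genes, 1540 of 17493 had an unadjusted p under 0.05. The background was low, since 0.0915% of all genes tested were called. Chga stood at 25.2, 34.8 and 37.9 CPM in the controls and at 38.9, 33.5, 37.4 and 52.5 CPM in the mutant-labelled libraries (log2 fold change 0.31, 95% interval -0.09 to 0.71, edgeR adjusted p 0.704). Chgb stood at 40.9, 52.6 and 51.0 CPM in the controls and at 64.1, 54.5, 51.4 and 80.0 CPM in the mutant-labelled libraries (log2 fold change 0.37, unadjusted p 0.0422, edgeR adjusted p 0.538). Both means lay on the higher side, and the groups overlapped. Mutant replicate 4 had the highest value of both genes.

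Among the other 8 genes, 7 had a fitted log2 fold change below 0 at 8 days, and none was called. Pcsk1 stood at 15.3, 20.3 and 17.8 CPM in the controls and at 15, 14.2, 12 and 14.8 CPM in the mutant-labelled libraries. The groups did not overlap, by a narrow gap, as was the case for 7.63% of all genes tested at 8 days. Its log2 fold change was -0.35 (95% interval -0.63 to -0.06, unadjusted p 0.0219, edgeR adjusted p 0.473). Scg3 stood at 3.06, 4.58 and 4.29 CPM in the controls and at 2.59, 3.56, 2.15 and 2.70 CPM in the mutant-labelled libraries (log2 fold change -0.53, unadjusted p 0.0343, edgeR adjusted p 0.508). Scg2 stood at 16.1, 23.2 and 22.1 CPM against 17.0, 20.8, 12.6 and 12.8 CPM (log2 fold change -0.37, edgeR adjusted p 0.677). Replicates 3 and 4 of the mutant group were below all controls for Scg2, Scg3, Pcsk1 and Cpe. Cpe stood at 36.6, 51.2 and 48.6 CPM in the controls and at 48.8, 45.0, 32.7 and 34.8 CPM in the mutant-labelled libraries (log2 fold change -0.17, edgeR adjusted p 0.868). Pcsk2, Scg5, Pcsk1n and Vgf had log2 fold changes between -0.13 and 0.01. At 3 months, 2 of the 10 genes had groups that did not overlap, Chga and Chgb, against 19.2% of all genes tested.

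The effect differed between the time points for both chromogranins and was called for no other gene of the 10. The log2 fold change at 3 months minus that at 8 days was 1.25 for Chga (SE 0.21, edgeR adjusted p 0.0231) and 1.38 for Chgb (SE 0.23, edgeR adjusted p 0.0231). Of all 17959 genes tested, 0.785% were called in this contrast. The difference was positive for all 10 genes, with a median of 0.30 against -0.01 over all genes, and the next largest was that of Pcsk1 (0.48, unadjusted p 0.0214, edgeR adjusted p 0.202). Among the lists described below, it was also positive for 11 of 12 enteric neuron markers (median 0.50) and 4 of 4 glial markers (0.29). It was positive for 3 of 6 smooth muscle markers (0.01), 10 of 16 other processing enzymes (0.02) and 9 of 16 other granule proteins (0.06). The calls of Chga and Chgb depended on single control libraries. Without control replicate 2 or 3 of the 8-day cohort the adjusted p was 0.0663 or 0.0790 for both genes, without control replicate 2 or 3 of the 3-month cohort it was 0.0535 to 0.0582, and without control replicate 1 of the 3-month cohort that of Chgb was 0.0560. With Rfx6f/f controls only the differences were 1.16 and 1.23, with adjusted p values of 0.136 and 0.144.

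The 3-month controls of the 2 genotypes were compared to see whether having 1 floxed copy of Rfx6 in place of 2 went with other levels of these genes. None of the 10 was called, with 0 at an unadjusted p under 0.05, and edgeR called 0% of all 17780 genes tested (1220 at an unadjusted p under 0.05). DESeq2 called 48 genes, 0 of them among the 10. The estimates of 8 of the 10 genes were higher in Rfx6f/f than in Rfx6f/+ controls, with 0.24 for Chga and 0.37 for Chgb on the log2 scale (edgeR adjusted p 0.727 and 0.742). The 3-month rise of both genes was also called against the Rfx6f/f controls alone.

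The make-up of the group therefore moved toward the chromogranins at 3 months. In the summed CPM per kb of the 10 genes, Chga and Chgb together held 48.7% ± 2.85 in the controls (range 45.6 to 52.3%) and 76.1% ± 2.19 in the mutant-labelled libraries (range 73.9 to 78.9%; SD, n = 4 each). At 8 days they held 47.1% ± 0.833 (SD, n = 3) and 57.0% ± 7.03 (SD, n = 4). The share of Cpe at 3 months was 24.3% ± 0.841 in controls and 11.3% ± 1.51 in mutant-labelled libraries (SD, n = 4 each), while its mean CPM was nearly equal in both. These shares were formed after the values of the genes were seen and were not tested. Within the pair, the ratio of Chgb to Chga counts had a geometric mean of 2.13 in controls and 2.45 in mutant-labelled libraries at 3 months (difference 0.20 on the log2 scale, exact permutation p 0.114), and 1.49 and 1.54 at 8 days (exact permutation p 0.457).

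**Figure D3:**
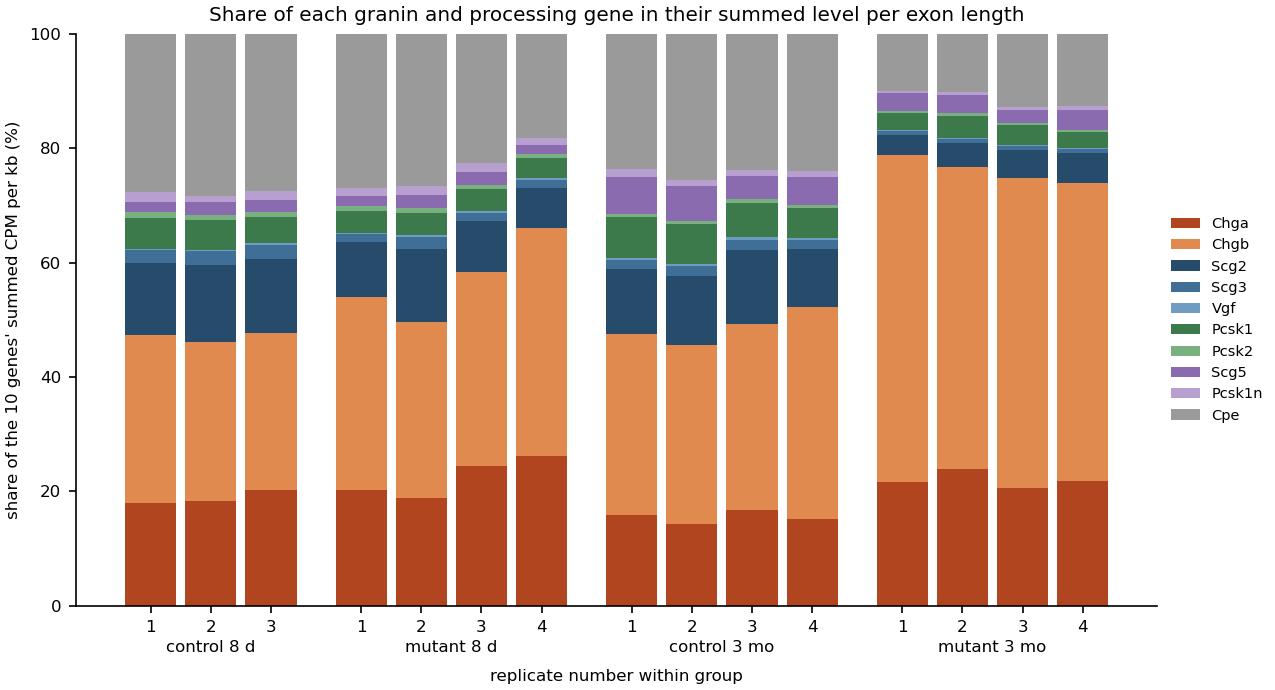
Share (percent, stacked from 0 to 100) of each of the 10 genes in their summed CPM per kb of exon, for each of the 15 libraries grouped by label and time. Chga and Chgb, the 2 lowest segments, fill 45.6 to 52.3% of the 3-month controls and 73.9 to 78.9% of the 3-month mutant-labelled libraries.

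Ratios within a library do not depend on its depth or scaling. Of the 6 log2 ratios of counts, only Scg3/Chga stood apart. It alone sets a gene called at 3 months (Chga, log2 fold change 1.58) against a gene not called (Scg3, -0.17). Its 3-month difference is thus mostly the rise of Chga given above. At 3 months the controls had log2 Scg3/Chga values of -3.30, -2.98, -3.24 and -3.32, and the mutant-labelled libraries had -4.92, -5.27, -4.86 and -4.87. At 8 days the values were -3.04, -2.92 and -3.14 in controls, and -3.90, -3.23, -4.11 and -4.27 with the mutant label. The groups did not overlap at either time, and the mean difference was -1.77 at 3 months and -0.85 at 8 days. The exact two-sided permutation p values were 0.0286 and 0.0571, the smallest that 4 against 4 and 3 against 4 libraries allow, and both were 0.343 after adjustment over the 12 ratio tests, a level that a single smallest p could not bring under the threshold. The ratios Pcsk1/Pcsk2, Scg5/Pcsk2, Pcsk1n/Pcsk1 and Cpe/Pcsk1 had exact permutation p values of 0.171 or more at both times. Their mean differences lay between -0.28 and 0.37 on the log2 scale.

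Peptide hormone genes, whose products include substrates of these enzymes, were lower in the mutant-labelled libraries. The summed level of 9 peptide hormone genes was 167.5 ± 21 CPM (SD, n = 3) in controls and 38.2 ± 13.6 CPM (SD, n = 4) in mutant-labelled libraries at 8 days. At 3 months it was 188.9 ± 37.1 and 21.5 ± 2.29 CPM (SD, n = 4 each). At 8 days edgeR called 5 of the 9 lower, and all 9 had an unadjusted p under 0.05. DESeq2 called all 9 at that time and limma-voom 5. At 3 months edgeR called lower all 8 that were tested, with Insl5 below the filter. None was called higher by edgeR at either time. Gcg, the substrate from which PC1/3 makes GLP-1, had 1251 to 2005 counts a library in the 3-month controls and 0 to 5 in the mutant-labelled ones. The summed level of the 8 genes other than Chga and Chgb was 110.5 ± 7.98 and 111.1 ± 18.0 CPM in the same libraries, and that of Chga and Chgb was 99.9 ± 17.7 and 328.3 ± 36.0 CPM (SD, n = 4 each). Genes of enterochromaffin cells, the serotonin-making endocrine cells, were called higher at 3 months for 4 of the 5 tested (Tph1, Ddc, Slc18a1 and Lmx1a), while Tac1 had a log2 fold change of -0.09 and Fev was below the filter. At 8 days all 5 had a positive fold change and edgeR called 0, with 2 at an unadjusted p under 0.05, Tph1 (0.66, edgeR adjusted p 0.379) and Lmx1a (0.80, edgeR adjusted p 0.201). DESeq2 called these 2 and limma-voom 0. Tph1, the first enzyme of serotonin synthesis, rose from 8.10 ± 2.87 to 29.6 ± 3.18 CPM (SD, n = 4 each; log2 fold change 1.87, edgeR adjusted p 0.00408). These comparisons use the same libraries as those of Chga and Chgb, so they are not independent of them.

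Neurons of the gut wall express most of the 10 genes and lie outside the reach of the Villin promoter. Their markers were present in every library. The summed level of 12 neuron markers was 75.0, 93.3 and 103.0 CPM in the 8-day controls and 86.7, 92.4, 71.7 and 72.9 CPM in the mutant-labelled libraries, with 1 of 12 positive and 0 called by edgeR, DESeq2 or limma-voom (1 at an unadjusted p under 0.05). The summed level of the 8 genes other than Chga and Chgb was 78.9, 108.0 and 102.3 CPM and 92.7, 93.0, 67.1 and 72.7 CPM in the same order. At both sums, control replicate 1 and mutant replicates 3 and 4 were the 3 lowest of the 7 libraries.

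At 3 months the neuron markers summed to 66.0, 69.9, 67.7 and 66.7 CPM in controls and to 70.7, 66.1, 96.7 and 72.8 CPM in mutant-labelled libraries, with 11 of 12 positive and 1 called (Snap25, log2 fold change 0.70, edgeR adjusted p 0.0106). Mutant replicate 3 had the highest neuron sum and also the highest sum of the 8 genes (135.9 CPM, against 97.6, 97.7 and 113.2 CPM in the other 3). It was also the highest of its group for the summed markers of smooth muscle (2489 CPM, against 1408 to 1878 CPM), interstitial cells of Cajal (89.4 CPM, against 61.4 to 76.5 CPM) and glia (7.33 CPM, against 4.50 to 6.30 CPM), and the lowest for those of ileal enterocytes (2776 CPM, against 3723 to 4310 CPM). Scg2, Scg3, Vgf, Pcsk1, Pcsk2, Pcsk1n and Cpe were all highest in this library within its group, as were Chga and Chgb, and Scg5 was lowest in it (6.45 CPM). The part of neurons, or of the tissue make-up of this library, in the level of these genes was not tested. Glial markers (4 genes) had 0 calls by edgeR, DESeq2 or limma-voom at either time, with 0 at 8 days and 1 at 3 months at an unadjusted p under 0.05.

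**Figure D4:**
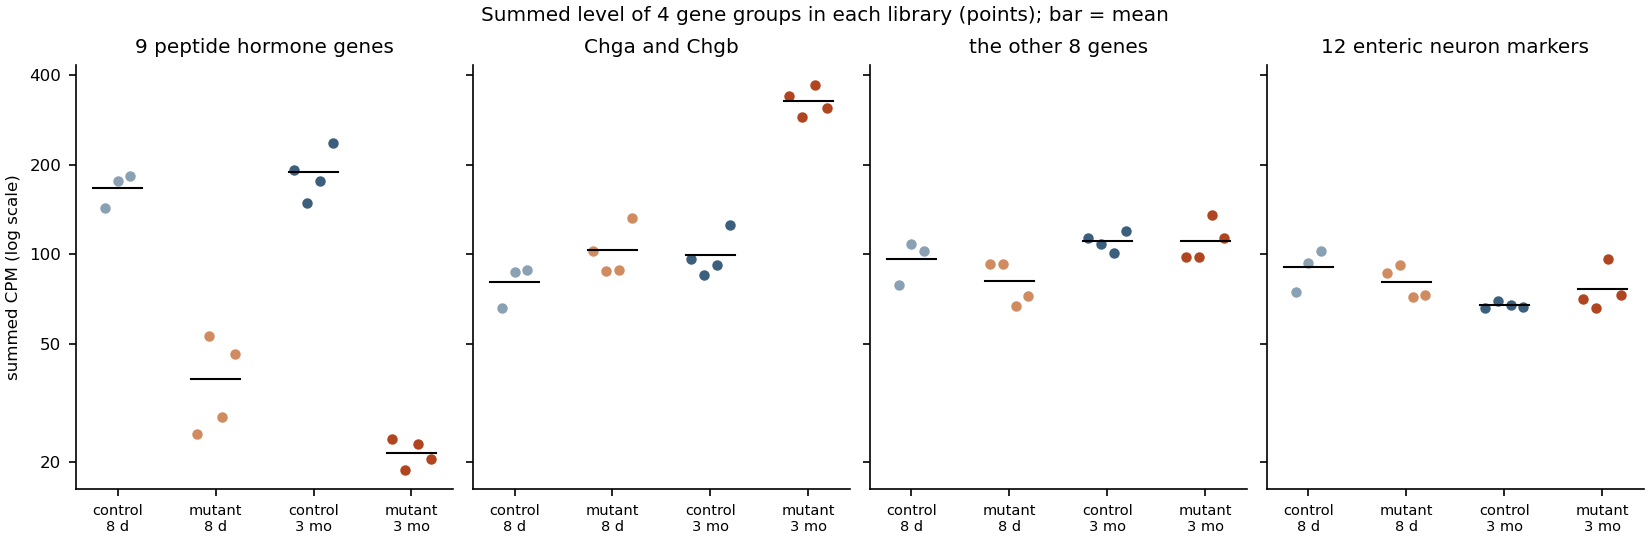
Summed CPM (log axis, shared) of 9 peptide hormone genes, of Chga and Chgb, of the other 8 granin and processing genes and of 12 enteric neuron markers in each library; bars are group means. At 3 months the hormone sum is lower in mutant-labelled libraries (18.9 to 23.9 CPM) than in controls (149.1 to 237.6 CPM), the chromogranin sum is higher (289.5 to 372.3 against 85.4 to 125.5 CPM), and the groups overlap for the other 2 sums.

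Other tissue markers varied too. Fabp6, an ileal bile acid carrier, was the 1 of 4 ileal enterocyte markers called by edgeR at 3 months, lower in the mutant-labelled libraries (log2 fold change -1.44, edgeR adjusted p 0.00873). Alpi, of the same list, had 0.66 (edgeR adjusted p 0.131) and was called by DESeq2. The goblet cell mucin Muc2 (0.95, edgeR adjusted p 0.0144), Ano1 of the interstitial cells of Cajal (0.61, edgeR adjusted p 0.0454) and the endothelial cadherin Cdh5 (0.49, edgeR adjusted p 0.0245) were higher. The plasma cell genes Jchain (-0.85, edgeR adjusted p 0.0182) and Mzb1 (-1.05, edgeR adjusted p 0.00915) were lower. All 4 goblet cell markers had a positive fold change, and Clca1 (0.47, edgeR adjusted p 0.0519) was called by DESeq2 and limma-voom but not by edgeR. Xbp1 of the plasma cell list (-0.36, edgeR adjusted p 0.0711) was called by DESeq2 only. Of 6 smooth muscle markers edgeR called 0 (3 at an unadjusted p under 0.05) and DESeq2 called 1, Smtn. Of 2 Paneth cell markers edgeR, DESeq2 and limma-voom called 0 (1 at an unadjusted p under 0.05). The part of these cell types in the levels of the 10 genes was not tested. The summed level of 5 genes of the exocrine and endocrine pancreas ranged from 17.2 to 694.7 CPM over the 3-month libraries and from 3.50 to 103.0 CPM over the 8-day libraries, with 0 genes called by edgeR, DESeq2 or limma-voom and 0 at an unadjusted p under 0.05 at either time. Ins2, an insulin gene, was 1 of them and had 0 to 5 counts in any 3-month library. The sum of 694.7 CPM was that of 3-month control replicate 4. This library was also the highest 3-month control for Chga (36.4 CPM), Chgb (89.1 CPM) and the hormone sum (237.6 CPM). The part of pancreas carry-over in these levels was not tested.

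Other enzymes that process secreted precursors had smaller log2 fold changes than the chromogranins. Of 17 genes, 16 were tested at 3 months, and 3 of these were called higher at 3 months and none lower. Ctsl, a cathepsin that also cuts some prohormones, had a log2 fold change of 1.0 (SE 0.13, edgeR adjusted p 0.00613), with 51.9 ± 1.9 CPM in controls and 103.9 ± 19.7 CPM in mutant-labelled libraries (SD, n = 4 each). The convertase relative Pcsk6 changed by 0.70 (edgeR adjusted p 0.0126) and the endothelin-converting enzyme Ece1 by 0.35 (edgeR adjusted p 0.0173). Furin, Pcsk5, Pcsk7, Cpd and Pam, the amidating enzyme of many peptide hormones, were not called, with log2 fold changes between -0.06 and 0.19. Over all uncalled genes of the list the values ran from -0.46 (Cpm, edgeR adjusted p 0.191) to 0.61 (Pcsk4, edgeR adjusted p 0.219), with Qpct at -0.27, Ece2 at -0.26 (edgeR adjusted p 0.110) and Qpctl at -0.22 (edgeR adjusted p 0.145). The median of the list was 0.12. At 8 days 0 of the 17 were called by edgeR, DESeq2 or limma-voom, with 0 at an unadjusted p under 0.05. Of 16 other granule proteins, 1 was called at 3 months, Scgn, the calcium sensor secretagogin of endocrine cells, which fell (log2 fold change -0.71, edgeR adjusted p 0.0223). Ptprn, a granule membrane protein also known as IA-2, had a log2 fold change of 0.63 and an edgeR adjusted p of 0.0608, and the vesicular monoamine transporter Slc18a2 had 0.38 (edgeR adjusted p 0.368). DESeq2 also called Ptprn and Atp6v0a1. The median of these 16 genes was -0.01, with 7 positive.

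Genes with a profile most like the chromogranins were ranked by the root mean square difference of log2 CPM over the 15 libraries, each centred on its own cohort's control mean, among 13442 genes. The nearest gene to Chga was Chgb (0.16), followed by Tubb2a (0.21), Olfr558 (0.23), Inhba (0.25) and Por (0.27). The nearest to Chgb after Chga were Galr1 (0.23), Tph1 (0.23), Olfr558 (0.24) and Tubb2a (0.27). Of the granin and processing genes, Pcsk2 was at rank 1818 from Chga, Scg5 at 1985, Pcsk1n at 4454 and Pcsk1 at 5404. Cpe, with a log2 fold change of -0.004 at 3 months, was at 8410. Scg3 and Scg2, with small uncalled negative changes, were at ranks 12007 and 12449. For Pcsk1 the nearest were Negr1 (0.11), Ecm2, Tyro3, Armcx1 and Maged2 (0.14 for the last), none of which was called at 3 months. Cpe was the nearest of those other granin and processing genes that were ranked. Vgf was too low to be ranked.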

How the data were processed

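RNA of 15 ileum samples was depleted of ribosomal RNA and sequenced, per the labels' protocols, although the molecule label says polyadenylated. The authors deposited raw counts of reads for each Ensembl gene, 1 table for each time point. Reads were processed with TopHat2 2.0.10, Bowtie2 2.1.0 and HTSeq 0.6.1 on mm9, per the submitters' processing notes. Strand setting and annotation release are not given in the sources used here, and which of 2 RNA extraction methods each library had is not given either, so its part in the results was not tested.

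Symbols came from GENCODE M21, which named 32897 of 37620 identifiers (87.45%); identifiers without a symbol held 0.675% of counts. Promoter windows are from RefSeq on GRCm38.p6, a different build from that of the counts, and serve only as sequence. Groups came from the genotype and time labels, and replicate numbers are in deposit order and pair nothing. Each time point was tested with the quasi-likelihood F test of edgeR 4.0.16 (R 4.3.3) after filterByExpr with a minimum count of 10 and TMM scaling, with Benjamini-Hochberg adjustment over all genes and calls at 0.05. The time points were compared through the interaction term over all 15 libraries, and the 2 control genotypes within the 3-month libraries. Fold changes are mutant over control on the log2 scale. Intervals of 95% use the moderated residual degrees of freedom. Ratios used counts plus 0.5 and exact two-sided permutation tests over libraries. The genes named were the 10, Rfx6, the genes of the marker and pathway lists, and the 5 nearest profiles to Chga, Chgb and Pcsk1. The 10 genes, the lists and the ratios were chosen with earlier results of these data known. Alternatives were DESeq2 1.42.0, limma-voom (limma 3.58.1), other scalings and filters, robust empirical Bayes, a joint fit, Rfx6f/f controls only and leaving out each library. The tests were also run on simulated counts with changes larger than those of the 10 genes. The outcome is not used here and does not bear on the genes that were not called. Figures were drawn with matplotlib 3.10.9.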

Additional observations from a re-analysis of the deposited data

Results flagged for a closer look

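The difference between the 3-month and the 8-day effect was past the test's threshold for 2 genes, Chga (1.25 on the log2 scale, edgeR adjusted p 0.0231) and Chgb (1.38, edgeR adjusted p 0.0231). Time and cohort cannot be told apart in it. A single library stood apart from its group in 2 of 60 groups checked with Dixon's criterion, where 1 in 20, or 3, would be expected by chance. Mutant replicate 1 at 3 months had 3.40 CPM of Rfx6, against 2.31 to 2.38 CPM in the other 3. Mutant replicate 2 at 3 months had a log2 Scg3/Chga ratio of -5.27, against -4.92 to -4.86 in the other 3, and all 4 were below the controls.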

How the results depend on the processing

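At 3 months Chga and Chgb were called under every alternative run, with log2 fold changes of 1.46 to 1.65 and 1.60 to 1.93 and adjusted p values of at most 0.00226 and 0.0351; no other of the 10 genes was called under any alternative at either time. All 40 group levels moved by less than 1 SD on plain library totals. For the difference between time points, 0 of the 10 were called with Rfx6f/f controls only (Chga 1.16, Chgb 1.23) and 0 to 2 when 1 library was left out (Chga 1.13 to 1.42, Chgb 1.30 to 1.57); fewer samples entered these fits.

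Counts over all genes moved more. At 8 days, 16 genes became 178 with DESeq2, 27 without filter, 25 in the joint fit and 8 to 200 with 1 library left out (200 without mutant replicate 1). At 3 months, 1586 became 2983 with DESeq2, 341 with a 2-fold change as a minimum, 36 with Rfx6f/f controls only and 391 to 1521 with 1 library left out. For the difference between time points, 141 became 1017 with DESeq2, 41 with limma-voom, 223 without filter, 248 with 10 counts in every sample, 87 with a 2-fold change as a minimum, 5 with Rfx6f/f controls only and 10 to 749 with 1 library left out. Between control genotypes, 0 became 48 with DESeq2 and 1 with the 4 controls only. Apart from the numbers of samples and genes, the cause was not tested. The background shares above move with these counts.

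Small differences changed sign. With Rfx6f/f controls only, Pcsk1n was -0.040 at 3 months and -0.048 in the difference between time points, and log2 Pcsk1n/Pcsk1 at 3 months was -0.11; with medians it was -0.00147. With 1 library left out, the range crossed 0 at 8 days for Pcsk1n (-0.14 to 0.17), Pcsk2 (-0.15 to 0.047), Scg5 (-0.22 to 0.14) and Vgf (-0.32 to 0.051), and at 3 months for Cpe (-0.15 to 0.10) and Vgf (-0.21 to 0.058). It also crossed 0 in the difference between time points for Pcsk1n (-0.033 to 0.29), Scg2 (-0.040 to 0.22) and Vgf (-0.16 to 0.21). Among ratios it did so for Chgb/Chga at 8 days (-0.024 to 0.11), for Pcsk1n/Pcsk1 at 3 months (-0.15 to 0.12), and for Scg5/Pcsk2 at 3 months (-0.30 to 0.077) and at 8 days (-0.14 to 0.26). No paired analysis was possible because the labels carry no shared replicate numbers. Depth limits Vgf most, at 13 to 38 counts in any library.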
